A study of Saccharomyces cerevisiae with 54 samples.

Results

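Ergosterol is the main sterol of yeast membranes, and 32 genes that make, take up or store it were described here, of 6264 genes in the whole table. The members were listed by systematic name for what they are known to do. They were 9 genes of the mevalonate pathway, 3 genes leading to lanosterol, 11 genes leading on to ergosterol, 2 electron donors, 3 transcriptional regulators, 2 sterol esterification genes and 2 genes of sterol uptake. All 32 were tested in at least 12 strains, 27 of them were measured in each of the 17 strains and 12 on every array.

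The mevalonate pathway joins acetyl-CoA units into isoprenoids, which are condensed to squalene and closed to the first sterol, lanosterol. A series of enzymes in the endoplasmic reticulum then removes methyl groups and moves or adds double bonds until ergosterol is formed, and several of these steps need oxygen, heme and electrons passed on by partner proteins. Excess sterol is esterified and kept in lipid droplets, and cells without oxygen, which cannot make sterol, import it through ABC transporters.

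Transcript levels were measured on 54 spotted arrays that carried 1 long oligonucleotide per open reading frame, and on every array RNA of 1 non-laboratory strain was hybridized against RNA of DBY8268. The 17 strains were the vineyard strains B1, I14, M22, M8, PR and RM11a, the clinical isolates YJM308 and YJM789, the oak strains YPS1009 and YPS163, the sake strains K1 and K9, the natural isolates SB, Y1 and Y10, and YJM269 and Y12 from other fermentations. According to the study, RM11a and YJM789 are haploid, and no strain in these comparisons was treated. DBY8268 is a diploid derivative of the laboratory strain S288C that carries ura3-52/ura3-delta, ho/ho and GAL2/GAL2. All cultures were grown in the rich medium YPD at 30C into early log phase, with 4 arrays for each of M8, Y10 and YPS163 and 3 arrays for each of the other 14 strains.

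Values are log2 ratios of a strain over DBY8268, so 1 stands for a 2-fold higher level in the strain. A gene was called where limma gave an adjusted p under 0.01 within a strain. No expression array used here set DBY8268 against itself. Variation of DBY8268 RNA between arrays is part of the tested spread. A deviation of DBY8268 shared by all arrays is not, and it stands under every ratio. Per array 3393 to 5897 genes had a value, and 19.1% of all values and 9.14% of the member values were missing. The labels were checked on genes of mating type. RM11a had a median ratio of 6.18 over a-specific genes, and YJM789 one of 7.44 over alpha-specific genes. ERG10 and ERG20 had no value on any of the 24 arrays of slide series yG6, which held all 18 arrays with reversed dyes and every array of M22, RM11a and YJM789. ERG11 had a value on only 2 of those 24 arrays. A ratio of extracts from whole cultures cannot tell a change in every cell apart from a change in some of them.

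Relative to DBY8268, more pairs of a sterol gene and a strain were called higher than lower. Of 530 pairs of a member and a strain, 173 were called higher (32.6%), where 3.86% of all gene and strain pairs were called higher. Only 16 pairs (3.02%) were called lower, with 4.88% over all genes. The mean over strains lay above 0 for 26 of the 32 members, and the median of these means was 0.59, with a median of -0.03 over 5726 genes. At least 1 strain was higher for 22 members and lower for 6, and 4 members were called in no strain. The matching shares over all genes were not counted, so these 3 counts do not set the members apart from other genes. In at least 12 strains 6 members were higher (HMG1, ERG26, ERG28, ERG2, ERG5 and CYB5), as were 0.594% of all genes. In all 17 strains 4 members were higher, as were 0.279% of all genes. Of the 189 calls, 113 stayed below the threshold whichever array of that strain was left out.

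**Figure D1:**
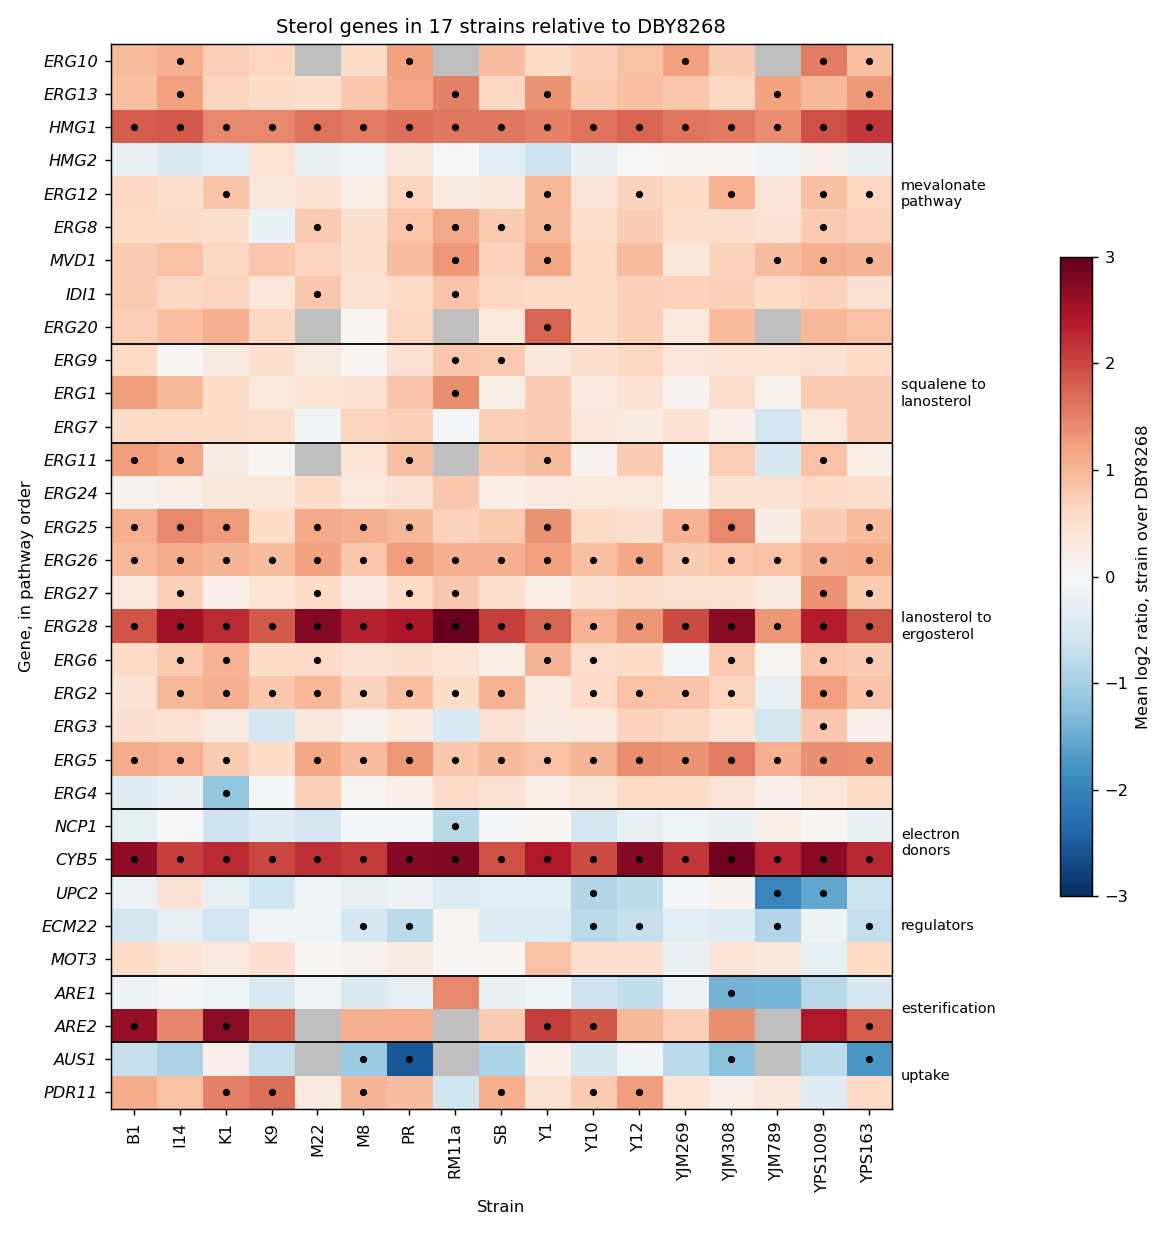
Mean log2 ratio of each sterol gene (rows, in pathway order, stages named at the right) in each strain (columns) over DBY8268, from blue (lower in the strain) to red (higher). Black dots mark an adjusted p under 0.01 and grey cells have no value. HMG1, ERG26, ERG28 and CYB5 are dotted in all 17 strains, while the 3 regulators have 9 dots, all on lower values.

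Calls are given by step beside the 3.86% of all pairs called higher, and the difference between steps was not tested. The mevalonate pathway had 48 higher calls in 147 pairs and the steps from squalene to lanosterol 3 in 51, while the steps from lanosterol to ergosterol had 94 in 185. The electron donors had 17 higher calls and 1 lower call in 34 pairs. The regulators had 9 lower calls and 0 higher calls in 51 pairs with limma, and at an unadjusted p under 0.05 they had 18 lower and 3 higher. Esterification genes had 5 higher calls and 1 lower call in 31 pairs, and uptake genes had 6 higher and 4 lower in 31.

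In the mevalonate pathway HMG1 stood apart from the other genes. HMG1 (YML075C) encodes the HMG-CoA reductase isozyme that predominates in growth with oxygen, and this reduction is the main control point of the pathway. Its ratio was 1.07 on the lowest of 54 arrays, 1.60 on the median array and 2.49 on the highest. The mean over strains was 1.65 ± 0.19 (SD, n = 17 strains), which is 3.14-fold, and the largest adjusted p in any strain was 7.05e-09. YPS163 was highest, with 2.49, 1.68, 2.48 and 1.78 on its 4 arrays, and YJM789 was lowest, with 1.10, 1.24 and 1.87. The arrays of both strains overlapped, and leaving out any 1 array of a strain ended none of the 17 calls.

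HMG2 (YLR450W) encodes the second isozyme, which is known to be degraded in response to pathway products. It was called in 0 strains with limma, and at an unadjusted p under 0.05 in 1 strain, where it was lower. Its mean was -0.11 ± 0.27 (SD, n = 17 strains), with strain means between -0.63 in Y1 and 0.41 in K9. The arrays of Y1 held -1.29, -0.41 and -0.18 and those of K9 held 0.55, 0.01 and 0.68, so replicates of 1 strain spread over much of that range. HMG1 had a higher ratio than HMG2 on all 54 arrays, by 1.76 ± 0.33 on average (SD, n = 17 strains). This difference compares how far each gene was from DBY8268, not the abundance of the 2 transcripts.

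The first enzymes of the pathway had moderate ratios that passed the test in some strains. ERG10 (YPL028W), the acetoacetyl-CoA thiolase, averaged 0.91 ± 0.28 (SD, n = 14 strains) and was higher in 5 strains, with the highest mean of 1.54 in YPS1009. All 29 of its values were positive, and all came from arrays of the forward dye orientation. ERG13 (YML126C), the HMG-CoA synthase, averaged 0.93 ± 0.31 (SD, n = 17 strains), was positive on all 54 arrays and was higher in 5 strains.

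Below HMG-CoA reductase, ERG12 (YMR208W), the mevalonate kinase, averaged 0.58 and was higher in 7 strains, and its strain means lay between 0.18 in M8 and 1.04 in YJM308. ERG8 (YMR220W), the phosphomevalonate kinase, averaged 0.63 and was higher in 6 strains. MVD1 (YNR043W), the mevalonate pyrophosphate decarboxylase, averaged 0.82 and was higher in 5. These enzymes act one after the other, and their means differed by less than the spread of single strain means.

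IDI1 (YPL117C), which isomerizes the first isoprenoid, averaged 0.63 ± 0.13 (SD, n = 17 strains), the smallest spread among the 32 members. It was called higher in 2 strains, M22 and RM11a, although 16 strains were higher at an unadjusted p under 0.05. ERG20 (YJL167W), the farnesyl pyrophosphate synthase, averaged 0.76 ± 0.41 (SD, n = 14 strains) and was higher in Y1 only, where its 2 values were 2.76 and 0.75.

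Single arrays carried several of these calls. No call of ERG10, ERG13, ERG8, MVD1, IDI1 or ERG20 held whichever array of the strain was left out, and ERG12 kept 3 of its 7 calls. ERG13 had ratios of 0.85, 0.73 and 2.96 on the arrays of RM11a, and without replicate 3 its mean there was 0.79 (adjusted p = 0.14). In YJM789 the ERG13 mean was 0.42 without replicate 2 (adjusted p = 0.408), and in Y1 it was 0.73 without replicate 1 (adjusted p = 0.413). MVD1 was at 2.27 on that array of RM11a and at 2.10 on that array of YJM789, and its means without them were 0.80 (adjusted p = 0.0545) and 0.34 (adjusted p = 0.396). ERG20 in Y1 was left with 0.75 without replicate 1 (adjusted p = 0.196). On these arrays more than 1 gene of the pathway was high at once, and the part of the arrays in these calls was not tested further.

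The 3 genes between farnesyl pyrophosphate and lanosterol passed the test in few strains. ERG9 (YHR190W), the squalene synthase that commits isoprenoids to sterol, averaged 0.44 ± 0.21 (SD, n = 17 strains) and was higher in RM11a and SB, with means of 0.81 and 0.79. ERG9 in SB rested on 1 array, and its mean was 0.45 without replicate 3 (adjusted p = 0.305). ERG1 (YGR175C), the squalene epoxidase and the first step to use oxygen, averaged 0.60 ± 0.38 and was higher in RM11a only. There its arrays held 0.51, 0.33 and 3.35, and without replicate 3 the mean was 0.42 (adjusted p = 0.428).

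ERG7 (YHR072W), the lanosterol synthase that closes the ring system, was called in 0 strains with limma and was higher in 5 strains at an unadjusted p under 0.05. Its mean over strains was 0.39 ± 0.37 (SD, n = 17 strains). In the 14 strains with arrays of both slide series its mean was 0.72 on series yG5 and 0.01 on series yG6, and over all strains it was 0.59 in the forward and -0.02 in the reverse dye orientation. In those 14 strains all yG5 arrays were forward and all yG6 arrays reversed, so series and dye cannot be told apart there. Of the 30 members with values on both series in those strains, ERG7 and ERG11 differed most between them. Over these 30 members the median was 0.70 on yG5 and 0.52 on yG6, and 24 members lay above 0 on each.

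The first conversion of lanosterol is made by ERG11 (YHR007C), the cytochrome P450 that azole drugs inhibit. ERG11 averaged 0.53 ± 0.50 (SD, n = 15 strains). It was higher in B1, I14, PR, Y1 and YPS1009, with means between 0.88 and 1.26, each over 2 arrays. None of these calls held whichever array of the strain was left out. Its lowest strain mean was -0.49 in YJM789, which rests on a single array. That array and 1 further array were the only ones of series yG6 with a value, and their mean was -0.37, while the 25 arrays of series yG5 averaged 0.64. ERG24 (YNL280C), the reductase that follows, averaged 0.37 ± 0.19 (SD, n = 17 strains) and was called in 0 strains with limma, with 3 strains higher at an unadjusted p under 0.05. Only 8 of the 25 arrays of series yG5 had a value for ERG24.

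The 4 proteins that strip methyl groups from the sterol ring act as a complex, and all 4 genes had positive means in every strain. ERG28 (YER044C), the scaffold that holds the enzymes of this complex together, had the largest difference of them. Its ratio was 0.60 on the lowest of 52 arrays, 2.18 on the median array and 4.92 on the highest. The mean over strains was 2.10 ± 0.57 (SD, n = 17 strains), or 4.29-fold, with a largest adjusted p of 0.00189. Y10 was lowest, with arrays at 0.60, 1.06, 1.05 and 1.45, and M22 held 2.69, 2.88 and 2.72, so that arrays of these 2 strains did not overlap. Of the 17 calls, 14 held without any 1 array, and those of Y10, Y12 and YJM789 did not.

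ERG26 (YGL001C), the decarboxylase of the complex, had the steadiest ratio among the members called in all strains. It was 0.55 on the lowest of 53 arrays, 1.02 on the median array and 1.60 on the highest, and the mean over strains was 1.03 ± 0.14 (SD, n = 17 strains), or 2.04-fold. PR was highest, with 1.30, 1.41 and 1.03, and YJM269 was lowest, with 0.99, 0.74 and 0.58. The largest adjusted p was 0.00018, in YJM269, and 16 of the 17 calls held without any 1 array.

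ERG25 (YGR060W), the methyl oxidase of the complex, averaged 0.94 ± 0.35 (SD, n = 17 strains) and was higher in 10 strains. I14 held 1.53, 1.52 and 1.28 and YJM308 held 1.46, 1.64 and 1.26, which were the highest strain means, while YJM789 was lowest with a mean of 0.23. ERG27 (YLR100W), the keto reductase of the complex, averaged 0.52 ± 0.28 and was higher in 6 strains. The complex thus spanned a mean of 0.52 for ERG27 and 2.10 for ERG28.

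The remaining enzymes shape the side chain and the double bonds. ERG6 (YML008C), the methyltransferase that adds the side-chain methyl group particular to fungal sterols, averaged 0.57 ± 0.30 (SD, n = 17 strains) and was higher in 8 strains, with its highest mean of 1.04 in K1. In Y1 its mean of 1.02 became 0.63 without replicate 1 (adjusted p = 0.0134). ERG2 (YMR202W), the sterol isomerase, was -0.47 on the lowest of 54 arrays, 0.79 on the median array and 1.38 on the highest. It was higher in 14 strains, with a mean of 0.74 ± 0.35 (SD, n = 17 strains), and was not called in B1, Y1 and YJM789. Leaving out 1 array of a strain left 12 of these 14 calls.

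ERG5 (YMR015C), the cytochrome P450 that desaturates the side chain, was -0.08 on the lowest of 54 arrays, 1.08 on the median array and 1.74 on the highest. Its mean was 1.10 ± 0.26 (SD, n = 17 strains), or 2.14-fold, and it was higher in 16 strains. The exception was K9, with -0.08, 1.07 and 0.67 on its arrays and an adjusted p of 0.0338. ERG5 kept 13 of the 16 calls without any 1 array.

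ERG3 and ERG4, which act beside ERG5 at the end of the pathway, had smaller ratios. ERG3 (YLR056W), the desaturase that works on the ring, averaged 0.24 ± 0.39 (SD, n = 17 strains), and it was higher in YPS1009 only, with a mean of 0.80. ERG4 (YGL012W), the reductase of the last step, averaged 0.20 ± 0.46 and was called once, in K1, where it was lower. It was higher in 0 strains with limma, and in 5 strains at an unadjusted p under 0.05.

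**Figure D2:**
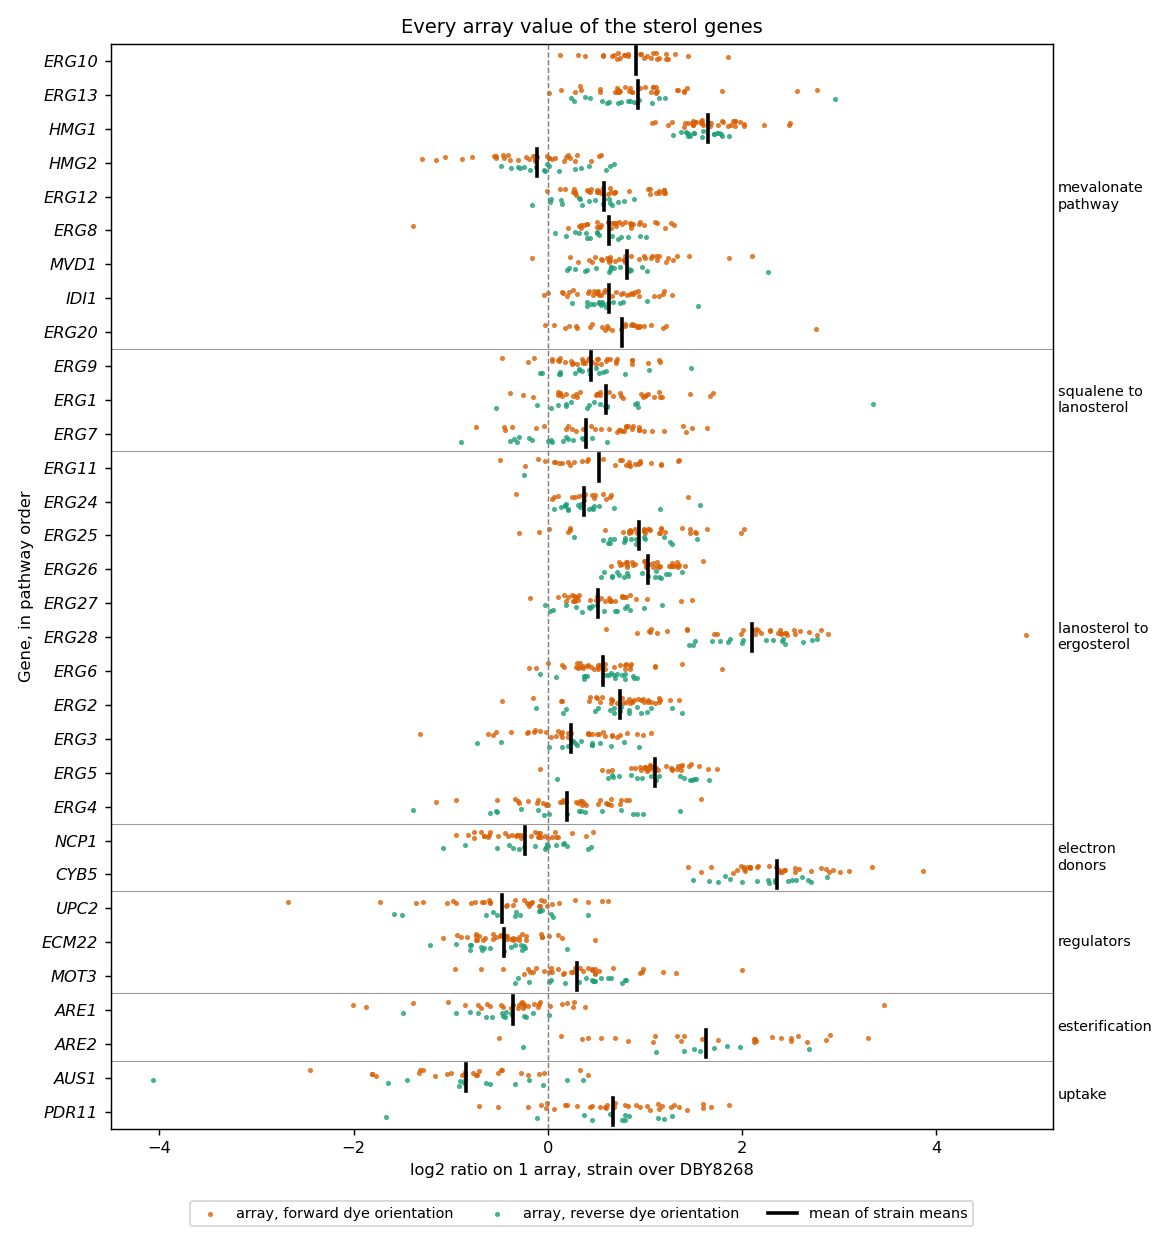
Log2 ratio of every array (horizontal axis, strain over DBY8268) for each sterol gene (vertical axis, in pathway order). Points are single arrays, orange for the forward and green for the reverse dye orientation, and black bars are means of strain means. All arrays lie above 0 for HMG1, ERG26, ERG28 and CYB5, and ERG10 and ERG20 have no green points.

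The 2 electron donors differed from each other. CYB5 (YNL111C) encodes cytochrome b5, which passes electrons to sterol oxidation and desaturation steps. It had the largest mean of the 32 members, with 1.44 on the lowest of 52 arrays, 2.34 on the median array and 3.86 on the highest. Its mean was 2.36 ± 0.33 (SD, n = 17 strains), or 5.12-fold, and the largest adjusted p was 2.03e-07. YJM308 was highest, with 2.81, 3.34 and 2.56, and SB was lowest, with 2.08, 2.02 and 1.66, and all 17 calls held without any 1 array.

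NCP1 (YHR042W), the reductase that supplies the cytochromes P450 of the pathway, averaged -0.23 ± 0.28 (SD, n = 17 strains). It was lower in RM11a, with -0.61, -0.82 and -1.08 (adjusted p = 0.000591), and the mean was -0.72 there without replicate 3 (adjusted p = 0.0212). At an unadjusted p under 0.05 it was lower in 5 strains and higher in 0.

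The regulators UPC2 and ECM22 are related zinc cluster factors that bind the sterol regulatory element and activate sterol genes when sterol is short. UPC2 (YDR213W) averaged -0.47 ± 0.59 (SD, n = 17 strains) and fell in Y10, YJM789 and YPS1009, with means of -0.88, -1.97 and -1.56. ECM22 (YLR228C) averaged -0.45 ± 0.28 and fell in M8, PR, Y10, Y12, YJM789 and YPS163, with means between -0.52 and -0.88. ECM22 in Y12 was at -1.21 on replicate 3 and had a mean of -0.43 without it (adjusted p = 0.186). ECM22 kept 2 of its 6 calls without any 1 array. Y10 and YJM789 were the 2 strains in which both factors were called lower, and in YJM789 each had a value on 2 arrays only.

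MOT3 (YMR070W), a repressor of hypoxic and sterol genes, averaged 0.30 ± 0.30 (SD, n = 17 strains). It was called in 0 strains with limma and was higher in 2 at an unadjusted p under 0.05. UPC2 had a higher ratio than ECM22 on 28 of 48 arrays and a lower one on 19, with a mean difference of -0.03 ± 0.59 (SD, n = 17 strains), so neither of the factors had the higher ratio throughout.

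The 2 acyl-CoA sterol acyltransferases, which make steryl esters, had opposite signs. ARE2 (YNR019W), the main enzyme in growth with oxygen, averaged 1.63 ± 0.66 (SD, n = 14 strains), or 3.09-fold, and was higher in B1, K1, Y1, Y10 and YPS163. K1 had the highest strain mean, with 2.50, 2.86 and 2.69 on its arrays. The residual SD of 0.87 between arrays of a strain was the largest among the members. In K9 the 2 arrays held 3.30 and 0.35. The call of K1 was the only 1 of these 5 that held without any 1 array.

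ARE1 (YCR048W), which is known to be induced when heme or oxygen is short, averaged -0.36 ± 0.62 (SD, n = 17 strains). It was lower in YJM308, with -0.72, -2.01 and -1.49 (adjusted p = 0.00505). ARE2 had a higher ratio than ARE1 on all 33 arrays with both, by 2.10 ± 0.63 on average (SD, n = 14 strains).

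Uptake showed the same kind of split between its 2 ABC transporters, which import sterol in cells without oxygen. PDR11 (YIL013C) averaged 0.67 ± 0.61 (SD, n = 17 strains) and was higher in K1, K9, M8, SB, Y10 and Y12, with means between 0.78 and 1.65. AUS1 (YOR011W) averaged -0.84 ± 0.72 (SD, n = 14 strains) and was lower in M8, PR, YJM308 and YPS163, with means between -1.12 and -2.55. PDR11 had the higher ratio on 34 of 35 arrays with both, by 1.66 ± 0.76 (SD, n = 14 strains). M8 was called higher for PDR11 and lower for AUS1, but its AUS1 call was lost whichever of its 3 arrays was left out. Only 2 of the 6 PDR11 calls and 2 of the 4 AUS1 calls held without any 1 array.

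**Figure D3:**
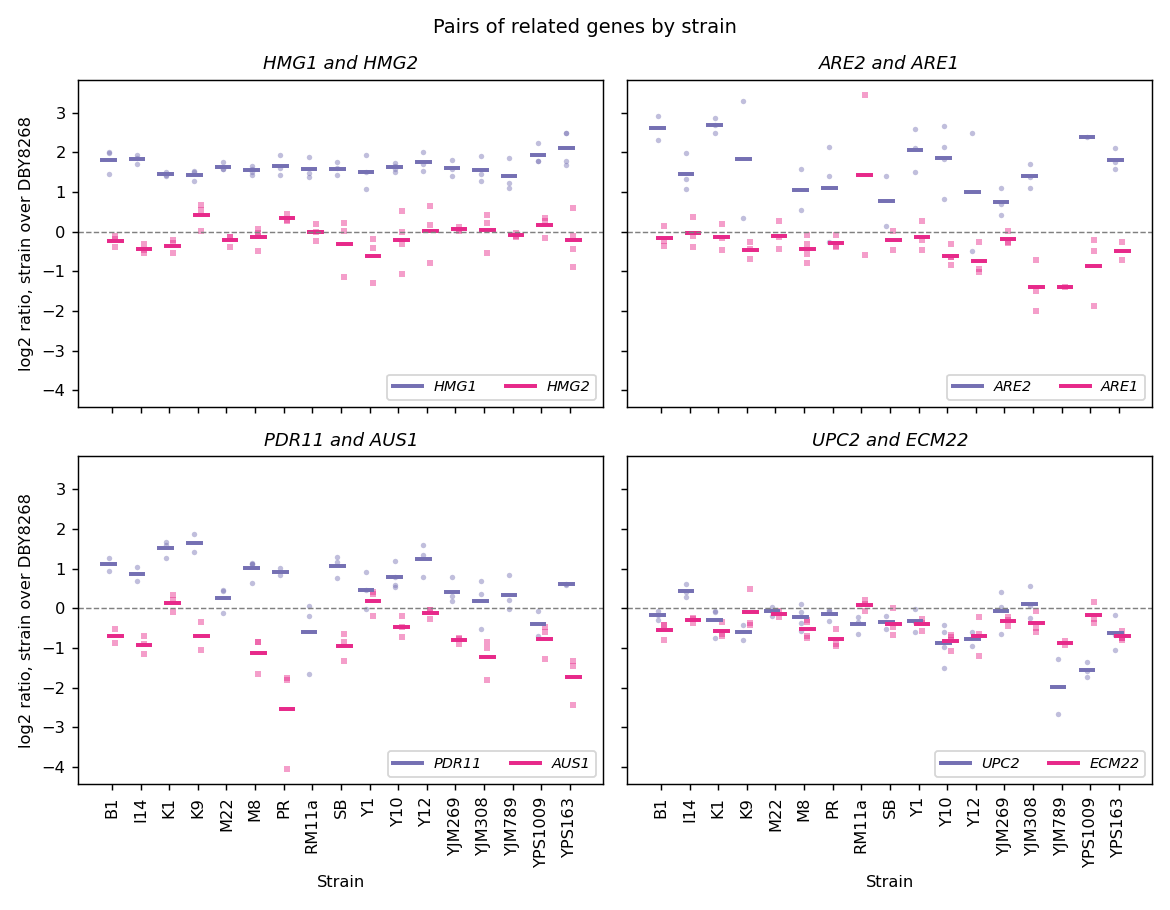
Log2 ratio over DBY8268 (vertical axis) of 4 pairs of related genes in each strain (horizontal axis), with arrays as points and strain means as bars. HMG1 lies above HMG2 on all 54 arrays and ARE2 above ARE1 on all 33, PDR11 lies above AUS1 on 34 of 35, and UPC2 and ECM22 overlap.

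The strains differed in how many members were called. By count Y1, YPS1009 and YPS163 had the most, with 14 of 32 members higher each, where 3.17%, 3.27% and 3.25% of all genes were called higher in these strains. YPS163 had 4 arrays, and in Y1 the calls of ERG13, MVD1 and ERG6 were among those lost without replicate 1. RM11a had 13 of its 27 measured members higher, with 6.5% of all genes. Of these calls in RM11a, only those of HMG1, ERG26, ERG27, ERG28 and CYB5 held whichever of its arrays was left out. K9 had the fewest, with 6 of 32, where 4.02% of all genes were called higher. Without replicate 1 of K9 the higher pairs over all strains rose from 173 to 186. YJM789 had 7 of 28 members higher although 13.1% of its genes were called higher, the largest share of the 17 strains. The median over members was 0.31 in YJM789 and 0.80 in RM11a, the lowest and the highest of the strains, and all 17 medians were positive.

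Whether strains differed from each other in these genes was asked with a moderated F test over the strain means, in which DBY8268 drops out. Of the 32 members, 17 had an unadjusted p under 0.05, for which no share over all genes was counted. After adjustment 10 members differed among strains, where 18.5% of all genes did. These 10 were ERG11, ERG27, ERG28, ERG6, ERG2, ERG3 and ERG4 among the 11 late steps, the regulator UPC2, and both transporters AUS1 and PDR11. The smallest adjusted p was that of ERG2 (7.88e-06). Of the mevalonate genes 0 of 9 were called with limma and 1 had an unadjusted p under 0.05. HMG1, ERG26 and CYB5, which were higher in all 17 strains, had adjusted p-values of 0.225, 0.593 and 0.121 in this test, which does not show that their levels were equal. Without the haploid strains RM11a and YJM789 the test called 6 members.

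Against the mean of the strains with a value, 3 of 530 member pairs were above and 8 below, where 1.59% of all gene and strain pairs were above and 1.07% below. The pairs lay in 6 strains, and YJM789 and RM11a had 3 each. They are described in the order of the pathway.

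ERG27 in YPS1009 held 1.37, 1.48 and 1.18, and none of the 49 arrays of other strains reached its lowest value. The difference from the mean of strains was 0.82 ± 0.15 (SE, adjusted p = 0.00047). Without replicate 2 it was 0.76 (adjusted p = 0.0217). ERG27 lies on chromosome XII, of which YPS1009 carries extra copies according to the study. The median ratio of this chromosome's genes was 0.39 in YPS1009. With the chromosome median of each array subtracted, the difference was 0.44 and had an adjusted p of 0.0889. ERG3, HMG2 and ECM22 lie on the same chromosome, and their ratios in YPS1009 minus its median were 0.40, -0.23 and -0.56.

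ERG28 differed in both directions. In RM11a it held 4.92, 2.29 and 2.63, which put it 1.18 ± 0.27 above the mean of strains (SE, adjusted p = 0.00236). Without replicate 1 the difference was 0.41 and not called (adjusted p = 0.409), and 21 of the 49 arrays of other strains were at or above its lowest array. In Y10 the difference was -1.06 ± 0.23 (SE, adjusted p = 0.00396), with means of the other strains between 1.32 in Y12 and 3.28 in RM11a. The call in Y10 was lost without replicate 1 (-0.92, adjusted p = 0.0566), without replicate 2 (-1.07, adjusted p = 0.0319) or without replicate 3 (-1.06, adjusted p = 0.0225), and with slide series as a block (-0.99, adjusted p = 0.0133).

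YJM789 was low for 2 late enzymes on all of its arrays. ERG2 held -0.15, -0.47 and -0.12 there, while the other 16 strains had means between 0.29 in Y1 and 1.23 in YPS1009. None of the 51 other arrays was as low as the highest of these 3. The difference from the mean of strains was -0.99 ± 0.14 (SE, adjusted p = 5.5e-07). ERG3 held -0.56, -0.62 and -0.48 in YJM789, a difference of -0.79 ± 0.20 (SE, adjusted p = 0.00399), and 3 of the 50 arrays of other strains were at least as low. The ERG3 call was lost without any 1 of the 3 arrays, with adjusted p-values between 0.0207 and 0.0315 and differences between -0.83 and -0.76.

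ERG4 in K1 held -0.94, -1.15 and -1.39, and none of the 51 arrays of other strains was as low as the highest of them. The difference from the mean of strains was -1.36 ± 0.26 (SE, adjusted p = 0.000458). The means of the other 16 strains lay between -0.38 in B1 and 0.71 in M22. Without replicate 3 of K1 the difference was -1.25 (adjusted p = 0.0255), and without replicate 2 it was -1.36 (adjusted p = 0.0116).

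UPC2 was below the mean of strains in YJM789, where 2 arrays held -1.28 and -2.67 and the difference was -1.51 ± 0.26 (SE, adjusted p = 4.18e-05). Without replicate 2 it was -0.85 (adjusted p = 0.0731). In YPS1009 UPC2 held -1.36, -1.73 and -1.58, with a difference of -1.09 ± 0.21 (SE, adjusted p = 0.000951), which was -1.01 without replicate 2 (adjusted p = 0.0308) and -1.08 without replicate 3 (adjusted p = 0.0132). The other strains reached up to 0.44 in I14, and the arrays of YPS1009 lay closer together than those of YJM789.

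Storage and uptake genes gave the remaining 3 pairs. ARE1 in RM11a had values of 3.46 and -0.59 on 2 arrays, and its difference of 1.80 ± 0.44 (SE, adjusted p = 0.00558) became -0.11 without replicate 1 (adjusted p = 0.957). AUS1 in PR held -1.81, -1.77 and -4.06, a difference of -1.71 ± 0.29 (SE, adjusted p = 0.000271), and -1.01 without replicate 3 (adjusted p = 0.0402). PDR11 in RM11a held -0.20, 0.06 and -1.67, a difference of -1.28 ± 0.24 (SE, adjusted p = 0.000345), and -0.78 without replicate 3 (adjusted p = 0.0532). AUS1 in PR and PDR11 in RM11a each had 1 array far from the other 2, and the 2 arrays of ARE1 in RM11a lay far apart.

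**Figure D4:**
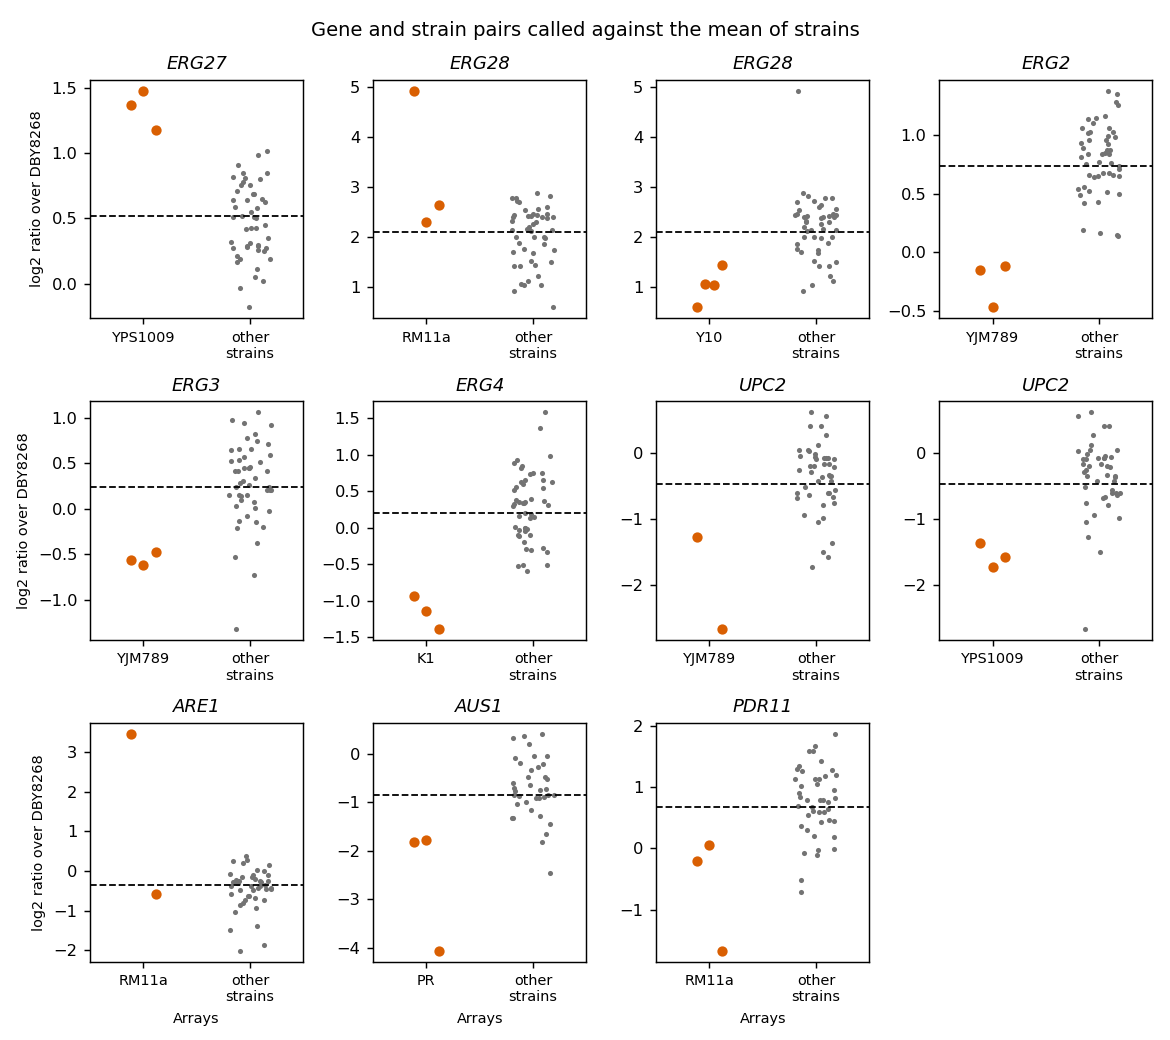
Log2 ratio over DBY8268 (vertical axis) on single arrays for the 11 gene and strain pairs called against the mean of strains, with the arrays of the named strain at the left (orange) and those of all other strains at the right (grey). Dashed lines are means of the strain means, over 14 strains for AUS1 and 17 for the other genes. ERG27 in YPS1009, ERG2 in YJM789 and ERG4 in K1 lie apart from all arrays of the other strains, and ARE1 in RM11a rests on 1 array.

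Members on other chromosomes with a shifted median were set beside that median too. PDR11 lies on chromosome IX, which according to the study appeared to be present in excess in K9. PDR11 was at 1.65 in K9, where the chromosome median was 0.40. ARE1 lies on chromosome III, whose median was -0.35 in YJM308 and 0.44 in K1. PDR11 had a value on 2 of the 3 arrays of K9, and the median of the same array was subtracted from each value. After this subtraction PDR11 in K9 was 1.31, ARE1 in YJM308 was -1.06 and ARE1 in K1 was -0.58.

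The oak strain YPS163 served as a second reference in the study. Against it 2 of 498 member pairs were above and 3 below, where 1.47% of all pairs were above and 0.533% below. ERG2 in YJM789 minus YPS163 was -1.10 (adjusted p = 1.31e-05), with arrays at -0.15, -0.47 and -0.12 in YJM789, against 1.14, 0.93, 0.87 and 0.49 in YPS163. ERG4 in K1 minus YPS163 was -1.74 (adjusted p = 0.00109), and -1.62 without replicate 3 of K1 (adjusted p = 0.0149). UPC2 in YJM789 minus YPS163 was -1.35 (adjusted p = 0.0044), and -0.65 without replicate 2 of YJM789 (adjusted p = 0.28). It was -0.82 once all arrays had an equal spread (adjusted p = 0.148) and -1.23 with slide series as a block (adjusted p = 0.0221). AUS1 was above YPS163 by 1.89 in K1 (adjusted p = 0.00595) and by 1.93 in Y1 (adjusted p = 0.00298). The arrays of AUS1 held 0.33, -0.09 and 0.20 in K1 and 0.41, -0.20 and 0.36 in Y1, against -1.32, -2.45 and -1.45 in YPS163. The AUS1 call in K1 was lost whichever array of K1 was left out, with adjusted p-values between 0.0175 and 0.0335. It was also lost without replicate 4 of YPS163 (adjusted p = 0.011) and after subtraction of the chromosome median (adjusted p = 0.0126). The call in Y1 was lost without replicate 1 (adjusted p = 0.0264) or replicate 3 of Y1 (adjusted p = 0.0154). Without replicate 3 of YPS163 the AUS1 differences were 1.53 in K1 (adjusted p = 0.0712) and 1.57 in Y1 (adjusted p = 0.0478). With the replicate block they were 1.84 in K1 (adjusted p = 0.0178) and 1.88 in Y1 (adjusted p = 0.012), and with slide series as a block the difference in Y1 was 1.81 (adjusted p = 0.0238).

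Beside the members, 59 genes next to the pathway were read in the same fit. Of their 965 pairs with a strain, 64 were higher (6.63%) and 54 lower (5.6%), where 3.86% of all gene and strain pairs were higher and 4.88% lower, and the median of their means was 0.03. By group, 6 of 157 pairs were higher and 1 lower among genes of other isoprenoid branches, 10 of 119 and 2 among genes of sterol enzyme turnover, and 10 of 341 and 31 among genes of sterol transport and modification. Steryl ester hydrolases and lipid droplet genes had 24 of 102 pairs higher, of which 17 were those of PET10. A list of regulators, transporters and partner proteins tied to sterol, heme or oxygen had 14 of 246 higher and 20 lower. Of these lower calls, 14 were those of HAP1.

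In all, 5 of these genes were called in 1 direction in at least 9 strains. PET10 (YKR046C), a perilipin-like coat protein of lipid droplets, was higher in all 17 strains with a mean of 2.03 ± 0.50 (SD, n = 17 strains), between 1.23 in M22 and 3.15 in YJM308. NSG2 (YNL156C), an INSIG-like partner of HMG-CoA reductase, was higher in 10 strains, with a mean of 0.90 ± 0.36. PRY1 (YJL079C), a secreted sterol-binding protein, was lower in 13 strains, with a mean of -1.29 ± 0.78 and strain means between -2.82 in YPS1009 and 0.33 in YJM789. YSP2 (YDR326C), which moves sterol between the plasma membrane and the endoplasmic reticulum, was lower in 11 strains, with a mean of -1.34 ± 0.42.

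HAP1 (YLR256W), the heme-responsive activator of respiratory and sterol genes, was lower in 14 strains, with a mean of -1.75 ± 0.60 (SD, n = 17 strains) and strain means between -2.77 in M22 and -0.73 in K9. This is a ratio of transcript and does not measure the activity of the protein. The study cites earlier work tying ergosterol and mitochondrial genes to a Hap1p polymorphism. From these same arrays the study lists sterol biosynthesis among the functions enriched in genes that S288C expresses at a lower level. It also reports that Hap1p targets were enriched among the differences particular to S288C. ROX1 (YPR065W), a repressor of hypoxic genes, averaged 0.48 ± 0.40 and was higher in 2 strains. The part of either regulator in the ratios of the sterol genes was not tested.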

How the data were processed

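The authors hybridized RNA of each strain with RNA of DBY8268 on arrays of oligonucleotides designed against the S288C genome, kept spots that passed their quality filters and applied regional mean-centering to the arrays. The deposited values, used as given, are log2 ratios of the strain over DBY8268, 1 per gene and array. Reversed arrays had already been turned, since the 38 pairs of a strain's arrays with opposite dyes all correlated above 0 (median 0.715). Centering hides a shift of all transcripts, and filtering can remove weak spots. The depth is that of 3 or 4 arrays: the median SE of a 3-array mean of a member was 0.21. No column lacked a sample (0).

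Groups came from the sample titles. One limma 3.58.1 fit in R 4.3.3 over all arrays gave each strain a coefficient, tested against 0 (DBY8268), against the mean of strain means and against YPS163, with Benjamini-Hochberg adjustment over all genes of a strain and a threshold of 0.01. Moderated F used genes with at least 12 strains. The calculation was tested on simulated data. All 32 members are named; arrays are given for members called in at least 12 strains (lowest, median and highest, with all arrays drawn) and for pairs called against the mean; other genes are named if called in at least 9 strains, with HAP1 and ROX1. Members and lists were chosen with earlier results of these data known. Alternatives changed centring, spread, filters, blocks for slide series, slide, dye and replicate number, the threshold, and the arrays or strains used. Deviations of same-numbered arrays of different strains correlated above 0.1 in 184 of 411 pairs (median r 0.06), those of arrays with different numbers in 236 of 960 (median -0.03) and those of arrays on 1 slide in 16 of 23 (median 0.24). Since not every same-numbered pair was over 0.1, numbers were not treated as pairs, and the slide was a random block in an alternative. RM11a and YJM789 shared their 3 slides. Nothing says beyond the methods' statement of biological replicates how cultures were shared, so p-values measure the spread between these arrays.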

Additional observations from a re-analysis of the deposited data

Results flagged for a closer look

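Several results were marked for a closer look because the strains differed among themselves in a member. The moderated F test over strain means gave an adjusted p of 7.88e-06 for ERG2, with strain means between -0.25 and 1.23, of 2.25e-05 for UPC2 (between -1.97 and 0.44), of 0.000157 for PDR11 (between -0.60 and 1.65), of 0.000232 for AUS1 (between -2.55 and 0.19) and of 0.000427 for ERG28 (between 1.04 and 3.28). It gave 0.00266 for ERG3 (between -0.55 and 0.80), 0.00476 for ERG6 (between -0.04 and 1.04), 0.005 for ERG27 (between 0.15 and 1.34), 0.00623 for ERG11 (between -0.49 and 1.26) and 0.00655 for ERG4 (between -1.16 and 0.71).

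Single arrays were marked where 1 of the 4 arrays of a strain lay far from the other 3. In M8, ERG28 was 2.01 on replicate 3 and between 2.40 and 2.45 on the others, MOT3 was -0.96 on replicate 1 and between 0.39 and 0.65 on the others, and PDR11 was 0.64 on replicate 4 and between 1.13 and 1.14 on the others. In Y10, ERG9 was 0.11 on replicate 3 and between 0.60 and 0.70 on the others, and ERG27 was 0.99 on replicate 4 and between 0.21 and 0.27 on the others. These were 5 of 75 sets of 4 arrays, and chance marks about 1 in 20. The strains with 3 arrays were not examined in this way.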

How the results depend on the processing

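The 173 higher and 16 lower pairs against DBY8268 became 191 and 14 with arrays centred on their median, 164 and 18 with a term for dye and 168 and 17 with a replicate block. Fewer were called on genes measured on every one of the 54 arrays (81 and 3, where 12 members remain, with 72 and 2 in the full fit) and in fits of each strain alone (51 and 1), which also left 0 members higher in at least 12 strains instead of 6. At a false discovery rate of 0.05 there were 25 lower pairs. Leaving out 1 array gave 162 to 186 higher pairs, 14 to 19 lower pairs, and 6 or 7 members that were higher in at least 12.

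Against the mean of strains, 3 pairs above and 8 below became 0 and 2 on complete genes (as for those 12 members in the full fit), 0 and 0 with strains fitted alone, and 9 and 19 at 0.05. Centring on the median gave 13 below, and leaving out the haploid strains, or M22, RM11a and YJM789 together (chosen after seeing the data), left 1 above in either case. Leaving out 1 array gave 1 to 5 above (1 without replicate 1 of RM11a) and 6 to 10 below.

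Against YPS163, 2 above and 3 below became 0 above on complete genes, 4 above with the dye term, 1 above with the replicate block (where both AUS1 calls were lost), 6 and 8 at 0.05, and 1 and 5 after subtraction of the chromosome median. There were 6 below after centring, and 1 below without the haploid strains or without M22, RM11a and YJM789. Leaving out 1 array gave 0 to 4 above and 2 to 5 below, with 0 above without replicate 3 of YPS163.

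The 10 members that differed among strains were 2 on complete genes (2 of those 12 in the full fit too), 6 without the haploid strains, 5 without M22, RM11a and YJM789, 11 with the replicate block, and 8 to 11 without 1 array. ERG11 lost its F test call in 17 of 65 settings, among them at least 2 values in a strain (adjusted p = 0.0131). ERG27 was lost after subtraction of the chromosome median (adjusted p = 0.0398), and ERG11 and ERG27 once all arrays had an equal spread (adjusted p = 0.0237 and 0.0248). That scaling also ended the calls against the mean of strains of ERG28 in Y10 (adjusted p = 0.0135), ERG3 in YJM789 (0.0187), ERG28 in RM11a (0.0391) and ARE1 in RM11a (0.0126), and that of UPC2 in YJM789 against YPS163 (0.148). ARE1 in RM11a lay between -0.11 (without replicate 1) and 3.71 when 1 array was left out. The mean of ERG11 changed sign on series yG6 (-0.37) and on reverse arrays (-0.25), where it had 2 arrays and 1, and that of ERG7 became -0.03 and -0.02. The cause of these shifts was not tested. The number of arrays, 3 or 4 in a strain, limits precision.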
